A study of Homo sapiens with 46 samples.

Results

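The genes described here encode the subunits of the proteasome and the proteins that assemble, activate or inhibit it. They were taken by symbol from the protein-coding genes of the count table, as PSMA, PSMB, PSMC, PSMD, PSME, PSMF or PSMG followed by a number, together with POMP. This gave 49 of the 58735 genes in the table, and 47 of them were among the 20272 genes with enough counts to be tested. The 49 genes were sorted by role. The core particle had 15 genes, 8 α subunits (the testis subunit PSMA8 among them) and 7 constitutive β subunits. The regulatory particle had 17 genes (6 base ATPases, 3 other base subunits and 8 lid subunits). The rest were 4 immunoproteasome or thymus β subunits, 5 activators or inhibitors and 8 assembly chaperones. The 49 genes lie on 18 chromosomes, with 8 genes on chromosome 14 and 7 on chromosome 17.

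The samples were HEK293T cells, an epithelial-like line of embryonic kidney origin, described as wild type. Translation of a single mitochondrial mRNA was silenced for 48 h with a chimera, a morpholino complementary to that mRNA joined to the mitochondrial targeting peptide pCox4, given at 2 µM with the delivery peptide EndoPorter. The 11 chimeras were directed against ATP6, ATP8, COX1, COX2, COX3, CYTB, ND1, ND2, ND3, ND4L or ND5, and the control was pCox4 alone in the buffer of the click reaction. All cells were of the same line and the same genotype, so each group is a treatment of that line and not a clone of its own. Each condition had 4 libraries of polyadenylated RNA, except COX2 (replicates 2, 3 and 4) and ND2 (replicates 1, 3 and 4) with 3, which gave 46 libraries. Replicates 1 and 2 (batch 1) and replicates 3 and 4 (batch 2) came from separate days and reagent lots.

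The proteasome degrades proteins that carry ubiquitin. Its core particle is a barrel of α and β rings in which PSMB5, PSMB6 and PSMB7 carry the chymotrypsin-like, caspase-like and trypsin-like activities, and its regulatory particle binds, unfolds and feeds in the substrate with a ring of ATPases and a lid that removes ubiquitin. Proteins that fail to enter mitochondria are among its substrates in the cytosol, and in cells exposed to interferon PSMB5, PSMB6 and PSMB7 are replaced by PSMB8, PSMB9 and PSMB10. In mammals, the transcription factor NFE2L1 raises the proteasome genes together when the proteasome is inhibited.

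Total counts ranged from 18876395 to 28121898 in 45 libraries and reached 100698084 in COX3 replicate 4. Of the silenced mRNAs, MT-CO1 was at 33.7 to 46.2% of the control of its batch in the COX1 libraries, and MT-CO3 and MT-CYB were also called lower in their own treatments. MT-ND1, MT-ND2 and MT-ND3 were called higher, at 152 to 217% of control, and the other 5 mRNAs did not pass the test. The chimeras act on translation, so the level of the mRNA does not check every label. The marker list of the HEK293 line summed to 1121 to 1424 CPM (counts scaled to the library total). Most of this came from VIM, KRT8 and NEFL, with control means of 429, 388 and 203 CPM. PAX2 was at 4.97 to 9.82 CPM and NEFM at 0.461 to 2.03 CPM. The leukocyte list summed to 1.93 to 4.41 CPM, with CD14 and CD74 detected in every library and CD3E at 0 in 28 libraries. The fibroblast list summed to 22.6 to 34.1 CPM, mostly COL1A1. All samples were cultures of this line, so the leukocyte and fibroblast lists give levels of these genes in it and not numbers of such cells. In bulk samples a change in some of the cells and a change in RNA of every cell cannot be told apart. The 66 pairs of replicates all differed by more than counting noise.

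Proteasome transcripts were abundant, taking 0.632 to 0.770% of all counts. Compared per kilobase of gene length, the lid subunit PSMD8 stood first in control cells, at 143 ± 14.3 CPM per kilobase (SD, n = 4). It was followed by the catalytic subunit PSMB5 at 130.0 ± 15.2, the base ATPase PSMC4 at 128 ± 7.83, and the β subunits PSMB4 at 124 ± 7.33 and PSMB3 at 124 ± 16.2 CPM per kilobase. The ranges of neighbours among these 5 genes overlapped, whereas the lowest PSMB3 library (105 CPM per kilobase) lay above the highest PSMB7 library (103 CPM per kilobase). PSMB7 came next, at 93.4 CPM per kilobase (range 81.5 to 103, n = 4), and its range overlapped those of the α subunit PSMA7 and of PSMB6.

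Among roles, the core β genes had the highest median level in control cells, 93.4 CPM per kilobase, ahead of the non-ATPase base subunits (60.2), the base ATPases (45.8), the activators and inhibitors (28.7), the lid (23.6), the core α genes (17.2) and the assembly chaperones (15.8). The core α genes ranged from 88.2 CPM per kilobase for PSMA7 down to 0.556 for PSMA6, although each α subunit occupies the same number of places in the ring. The lengths used are those of all annotated exons together, and the exons of several low α genes are shared with neighbours: 34.6% of the exonic bases of PSMA2 and 14.1% of those of PSMA6 are also exonic in another gene. Counts of 4 PSMA6 pseudogenes came to 13.1% of the PSMA6 counts. The α genes therefore cannot be ranked by these lengths alone. The order of the other genes and of the roles rests on the same lengths, such as 1179 bases for PSMB3 and 6996 for PSMA4. The part of these lengths in that order was not tested.

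The immunoproteasome genes were close to the limit of detection. PSMB8, the counterpart of PSMB5, had 3 to 44 counts a library with a median of 11, the highest in the deepest library. PSMB9, the counterpart of PSMB6, had 35 to 261 counts, and PSMB10, the counterpart of PSMB7, had 14 to 103. Per kilobase and in control cells, PSMB5 exceeded PSMB8 by 667- to 1055-fold, PSMB6 exceeded PSMB9 by 77.7- to 124-fold, and PSMB7 exceeded PSMB10 by 130- to 168-fold. However, 34.8% of the exonic bases of PSMB10, 20.6% of those of PSMB8 and 5.66% of those of PSMB9 are also exonic in another gene. Reads there may not be told apart, and the part of this overlap in the ratios was not tested. The thymus subunit PSMB11 (27 counts over all 46 libraries, 27 of them at 0) and the testis subunit PSMA8 (16 counts, 35 libraries at 0) failed the filter on low counts. The highest immunoproteasome level in control cells, PSMB9 at 0.801 ± 0.175 CPM per kilobase, was above the lowest constitutive core level, PSMA6, with overlapping ranges.

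**Figure D1:**
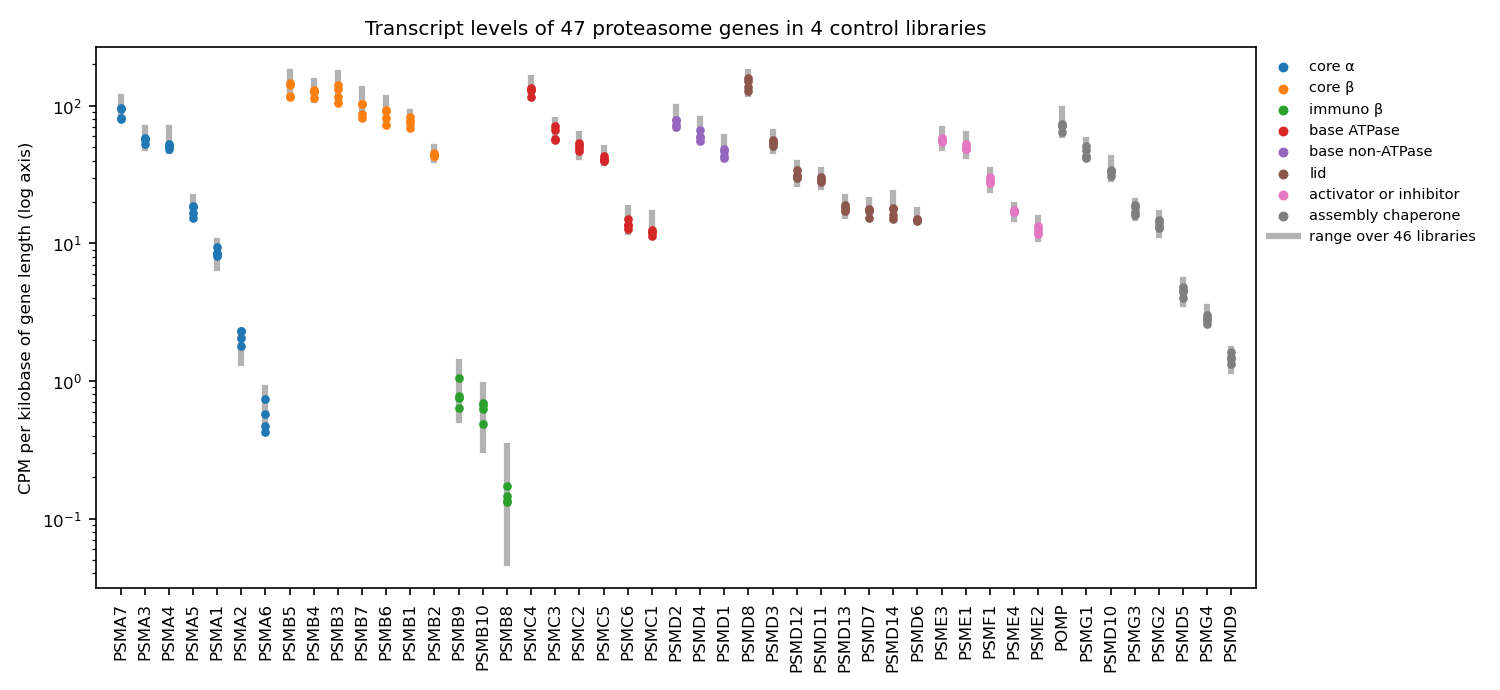
Level of the 47 tested proteasome genes on a log axis, as CPM per kilobase of gene length, with 1 coloured point for each of the 4 control libraries and a grey bar for the range over all 46 libraries, grouped by role. PSMD8 reached 143 CPM per kilobase as a control mean, while PSMB8, PSMB9 and PSMB10 lay below 1.

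Across all 46 libraries the steadiest proteasome genes were the lid subunit PSMD6, with a coefficient of variation of 4.33%, the activator PSME4 at 4.68% and the β subunit PSMB2 at 4.77%. Among abundant genes the most variable were PSMB3 at 13.2%, PSMB7 at 12.2% and the chaperone POMP at 11.9%. PSMB8, the gene with the fewest counts among those tested, varied by 33.1%. These coefficients include the difference between batches, which was largest for PSMB3 (log2 difference -0.30).

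Silencing of COX3 was the treatment in which proteasome genes passed the test most often. With the batch as a term, edgeR's quasi-likelihood test called 4 of 47 proteasome genes at an adjusted p under 0.05, all higher (PSMC1, PSMD1, PSMD14 and PSMB7), against 0.178% of all genes called higher. 3 of the 4 are regulatory particle genes, an ATPase and a scaffold of the base and an enzyme of the lid, and the fourth is a catalytic core subunit. The number called depended on the model. A block for each replicate number was fitted because same-numbered libraries deviated together, although different numbers of the same batch did so too. The block called 12 genes in place of 4, and DESeq2 with the batch called 11. These models also called more genes in all, 158 and 152 in place of 62. Without the batch term, and within batch 1 or batch 2 alone, none was called.

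PSMC1, an ATPase of the base, lies at chr14:90256495-90275429 on the plus strand (GRCh38). It measured 75.1, 77.0, 70.3 and 75.1 CPM in control replicates 1 to 4 and 103, 91.9, 89.1 and 85.3 CPM in COX3 replicates 1 to 4. Every COX3 library lay above every control library, whatever the batch. The log2 fold change was 0.31 (SE 0.050, edgeR adjusted p = 0.000696), and within the batches it was 0.36 and 0.25. PSMC1 shares 75.8% of its exonic bases with NRDE2 on the opposite strand, and the strandedness of the counting is not given in the sources used here, so reads of these genes may not be told apart. NRDE2 itself had a log2 fold change of -0.04 in the COX3 libraries (edgeR adjusted p = 0.881). Counts of 13 PSMC1 pseudogenes came to 8.65% of the PSMC1 counts.

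PSMD1, a scaffold of the base together with PSMD2, lies at chr2:231056864-231172827 on the plus strand. It measured 243, 253, 224 and 218 CPM in control replicates 1 to 4 and 305, 295, 294 and 245 CPM in the COX3 libraries. Each COX3 library lay above both control libraries of its batch, and COX3 replicate 4 was the lowest of the treated libraries and fell below a control of the other batch. The log2 fold change was 0.28 (SE 0.047, edgeR adjusted p = 0.000696) and was 0.28 in either batch. The exons of PSMD1 overlap those of HTR2B over 10.8% of their bases, and HTR2B had 253 counts over all libraries.

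PSMD14, the lid enzyme that cuts ubiquitin from the substrate, lies at chr2:161308038-161411717 on the plus strand. It measured 137, 139, 124 and 116 CPM in the control libraries and 179.6, 152, 152 and 139 CPM in the COX3 libraries. COX3 replicate 1 stood above the rest, and all 4 libraries were above the controls of their batch. The log2 fold change was 0.27 (SE 0.051, edgeR adjusted p = 0.00457). The call was lost without COX3 replicate 1 (adjusted p = 0.0918) and without control replicate 4 (adjusted p = 0.0732).

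PSMB7, which carries the trypsin-like activity, lies at chr9:124353466-124415444 on the minus strand. It measured 183, 184, 155 and 146 CPM in the control libraries and 234, 210.1, 181 and 184 CPM in the COX3 libraries. The treated libraries were above the controls of their batch in 4 of 4 cases, while neither COX3 library of batch 2 exceeded the highest control of batch 1. The log2 fold change was 0.28 (SE 0.056, edgeR adjusted p = 0.0102). It too was no longer called without COX3 replicate 1 (adjusted p = 0.0918) or without control replicate 4 (adjusted p = 0.107).

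**Figure D2:**
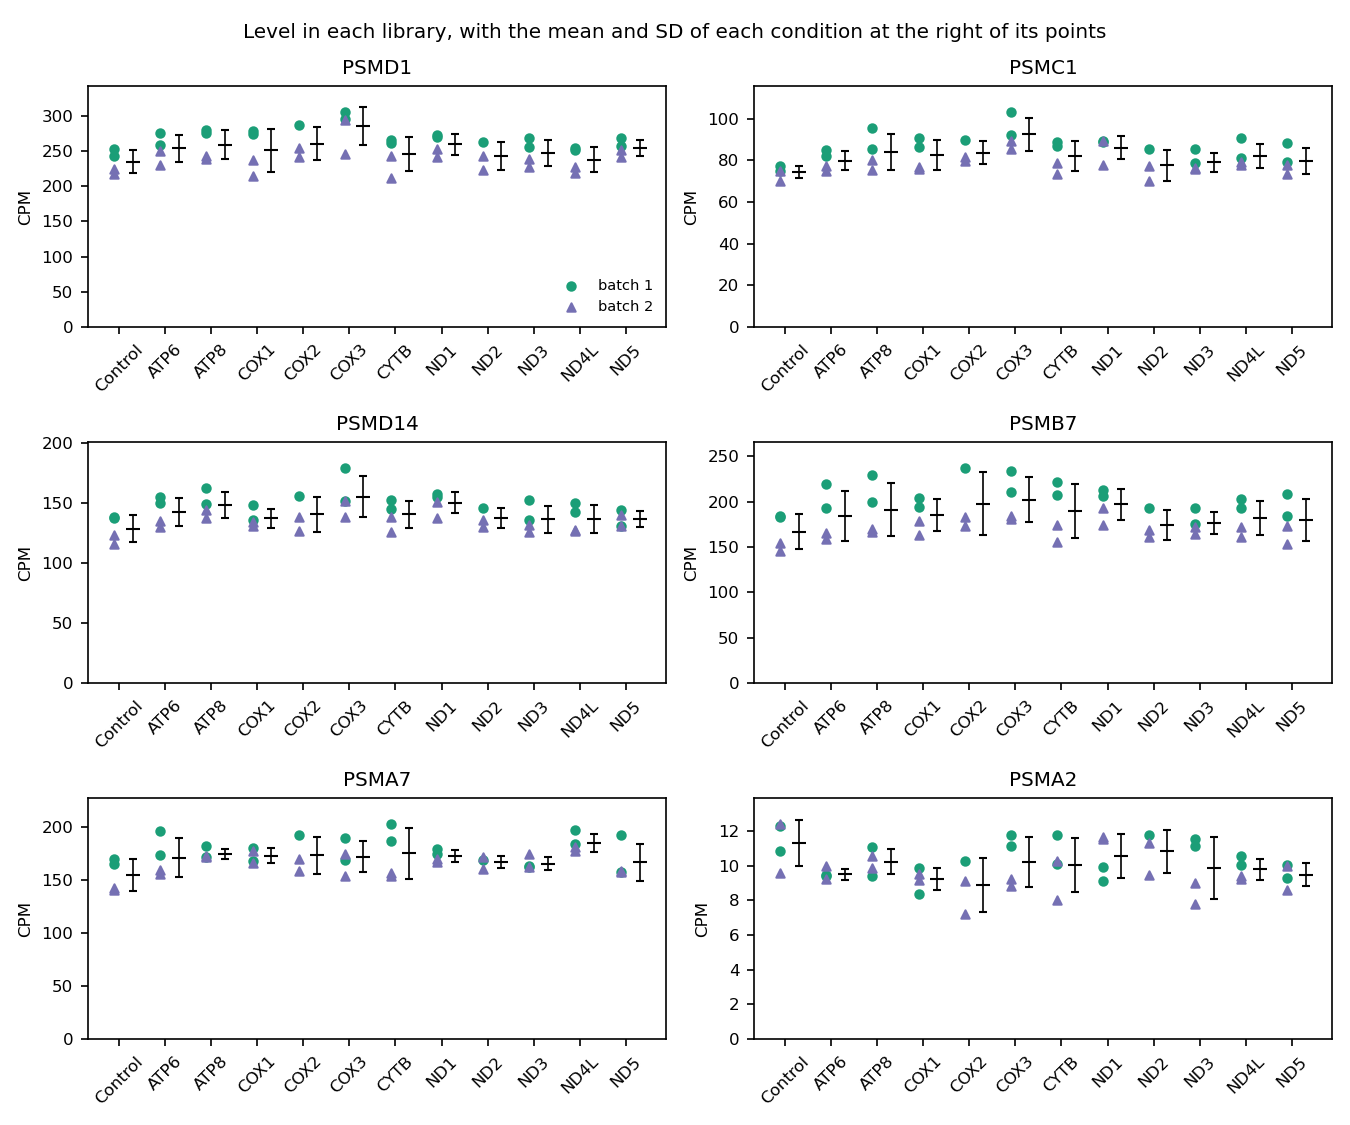
CPM of the 5 proteasome genes called in any treatment and of PSMA2 in each of the 46 libraries, with circles for batch 1 and triangles for batch 2, and the mean and SD of each condition at the right of its points. In COX3, PSMC1 stood at 85.3 to 103 CPM against 70.3 to 77.0 in control, and batch 2 lay below batch 1 in most conditions.

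The windows around the transcription starts of the called COX3 genes were read from RefSeq (GRCh38.p14, plus strand, 250 bases before to 50 after the start) and searched on both strands for TGACNNNGC, the core of the antioxidant response element that NFE2L1 and its relatives bind, and for CCAAT, the site of NF-Y, a factor of many proteasome promoters. They are shown because these genes moved together, with matches in capitals. The PSMC1 window (chr14:90256303-90256602) held neither motif. The PSMD1 window (chr2:231056617-231056916) held TGACTGAGC from position 40 after the start. The PSMD14 window (chr2:161308175-161308474) held CCAAT from position -48 on the plus strand and, overlapping it, ATTGG from -45, which is CCAAT on the minus strand.
PSMC1: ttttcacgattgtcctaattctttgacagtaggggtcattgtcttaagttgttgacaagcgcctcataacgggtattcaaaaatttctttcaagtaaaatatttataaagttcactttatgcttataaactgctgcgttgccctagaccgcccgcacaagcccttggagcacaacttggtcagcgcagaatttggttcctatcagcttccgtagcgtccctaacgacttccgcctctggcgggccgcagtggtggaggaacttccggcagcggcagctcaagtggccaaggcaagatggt
PSMD1: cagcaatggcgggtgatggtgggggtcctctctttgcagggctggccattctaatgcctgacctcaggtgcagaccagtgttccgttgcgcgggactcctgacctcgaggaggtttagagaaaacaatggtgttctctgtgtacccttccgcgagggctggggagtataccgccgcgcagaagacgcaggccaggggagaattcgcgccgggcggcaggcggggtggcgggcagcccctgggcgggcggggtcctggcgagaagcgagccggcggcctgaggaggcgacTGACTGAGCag
PSMD14: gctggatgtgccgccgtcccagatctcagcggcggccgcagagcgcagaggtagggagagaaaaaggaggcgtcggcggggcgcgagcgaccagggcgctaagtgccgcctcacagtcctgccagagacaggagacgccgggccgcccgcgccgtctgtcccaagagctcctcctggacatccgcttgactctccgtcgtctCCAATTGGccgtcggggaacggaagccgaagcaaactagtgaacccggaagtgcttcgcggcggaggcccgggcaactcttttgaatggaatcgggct

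RefSeq windows were matched for 43 of the 49 genes, 52 windows in all. TGACNNNGC was found in 15 of the 52 windows (28.8%), against 13.3% of all 35116 windows of that length. CCAAT was found in 20 windows (38.5%), against 34.6% of all windows. By role, windows with TGACNNNGC belonged to 5 of 16 regulatory genes, 2 of 11 core genes, 4 of 7 assembly chaperones, 3 of 5 activators or inhibitors and 1 of 4 immunoproteasome or thymus genes. A match of letters is a description and not a binding site. PSMB7 and PSMA7, along with PSMB1, PSMB6, PSMD4 and PSMG3, had no entry.

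Only 3 of the 17 regulatory genes passed the test in the COX3 libraries. All 17 regulatory genes had a log2 fold change above 0, from 0.13 (PSMC6) to 0.31, and 16 of the 17 had an unadjusted p under 0.05, including all 8 lid genes. Over all 47 proteasome genes, 24 were higher at an unadjusted p under 0.05, against 5.65% of all genes, and 21 had every library above the controls of its batch, against 5.58% of all genes. The next genes by adjusted p were the base scaffold PSMD2 at 0.21 (SE 0.052, edgeR adjusted p = 0.0518), the catalytic PSMB5 at 0.24 (SE 0.059, adjusted p = 0.0583), the ATPase PSMC4 at 0.19 (SE 0.048, adjusted p = 0.0626), the lid subunit PSMD7 at 0.23 (SE 0.062, adjusted p = 0.0918) and the catalytic PSMB6 at 0.23 (SE 0.065, adjusted p = 0.0999). All 5 were called under the replicate block, as were PSMC5, PSMD4 and PSMD11.

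PSMB5, the subunit that proteasome inhibitors in the clinic bind, measured 248, 257, 208 and 205 CPM in the control libraries and 302, 272, 242 and 263 CPM in the COX3 libraries. PSMB6 measured 135, 133, 118 and 105 CPM in control and 161, 145, 133 and 136 CPM in COX3. For both genes every COX3 library lay above the controls of its batch, and the batches overlapped with each other. The core α genes were less uniform in this treatment, with 6 of 7 above 0 and 3 at an unadjusted p under 0.05, and PSMA2 below 0 at -0.15 (SE 0.106, edgeR adjusted p = 0.688). The activators and inhibitors had a median of 0.03 and the assembly chaperones of 0.01, and none of these 13 genes reached an unadjusted p of 0.05.

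The difference between COX3 and the other treatments was tested in the same fit. Against the mean of the other 10 treatments, edgeR called PSMD1 at a log2 difference of 0.18 (SE 0.034, adjusted p = 0.0127) and PSMC1 at 0.17 (SE 0.036, adjusted p = 0.0313), 2 of 47 genes against 0.0247% of all genes called higher. The replicate block added the lid subunit PSMD11 and the ATPase PSMC2, with 27 genes called in all in place of 11. At an unadjusted p under 0.05, 15 proteasome genes were higher in COX3 than in the other treatments, against 2.32% of all genes, 12 of them regulatory. PSMD1 lost this call without COX3 replicate 1 (adjusted p = 0.197) or COX3 replicate 3 (adjusted p = 0.765). PSMC1 lost it without any of 5 libraries, COX3 replicates 1, 3 and 4 among them, at adjusted p from 0.0504 to 0.844, and neither gene was called within a single batch.

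After silencing of COX2, PSMB7 was the only proteasome gene called, 1 of 47 against 0.252% of all genes called higher. It measured 237, 183 and 173 CPM in COX2 replicates 2, 3 and 4, against 184, 155 and 146 CPM in the controls of the same number. Replicate 2, the only COX2 library of batch 1, was the highest PSMB7 library of the series. The log2 fold change was 0.29 (SE 0.060, edgeR adjusted p = 0.0143), 3 of 3 libraries were above the controls of their batch, and the call was lost without COX2 replicate 2 (adjusted p = 0.198), COX2 replicate 3 (0.0988) or control replicate 4 (0.105). At an unadjusted p under 0.05, 23 proteasome genes were higher against 7.42% of all genes, and 18 did not overlap the controls of their batch against 11.3% of all genes. These 23 included 6 of 7 core β genes and 12 of 17 regulatory genes, all 17 of which lay above 0. PSMD1 was the additional gene called under the replicate block, which made 2 of 220 genes called in all, and DESeq2 called 3 of 294, where edgeR with the batch called 95.

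After silencing of ND1, no proteasome gene was called by edgeR, against 0.0493% of all genes called higher, although 24 were higher at an unadjusted p under 0.05 against 6.47% of all genes. DESeq2 called 5 of 161 genes called in all, and the replicate block called 3 (PSMB7, PSMD14 and PSMC1) of 78, where edgeR with the batch called 18. These 3 had log2 fold changes of 0.24 (SE 0.056, edgeR adjusted p = 0.059), 0.22 (SE 0.051, adjusted p = 0.0577) and 0.21 (SE 0.051, adjusted p = 0.0741). In all, 45 of 47 genes lay above 0, beside 49.1% of all genes, the exceptions being PSMA2 and PSMB10, and 20 did not overlap the controls of their batch against 6.46% of all genes. PSMC1 measured 89.0, 88.8, 89.1 and 77.5 CPM in the ND1 libraries, so that replicate 4 stood below the close group of the other 3 libraries and still above the controls of its batch. Against the other 10 treatments, 14 genes were higher at an unadjusted p under 0.05 against 5.46% of all genes, and none was called by edgeR or by DESeq2 with the batch, against 0.0197% of all genes called higher.

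POMP, the chaperone of core assembly, had its highest fold change in ND1, 0.23 (SE 0.082, edgeR adjusted p = 0.206). It measured 118, 136, 127 and 92.8 CPM in the ND1 libraries and 104, 102, 105 and 91.9 CPM in control. Replicate 4 fell below the mean of its batch controls, and the other 3 libraries lay above every control library.

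After silencing of ND4L, PSMA7 was called, 1 of 47 against 0.118% of all genes called higher. PSMA7, an α subunit, lies at chr20:62136735-62143440 on the minus strand and shares no exonic base with another gene. It measured 169, 165, 140.4 and 143 CPM in control and 184, 197, 180.4 and 177 CPM in the ND4L libraries. All 4 ND4L libraries were above all 4 control libraries. The log2 fold change was 0.26 (SE 0.060, edgeR adjusted p = 0.0445), with 0.19 in batch 1 and 0.33 in batch 2, and the call was lost in 7 of the 8 fits that left out a library, at adjusted p from 0.0519 to 0.277. In this treatment 29 of 47 genes lay above 0, beside 50.8% of all genes, 10 were higher at an unadjusted p under 0.05 against 7.11% of all genes, and DESeq2 called 3 of 321 genes called in all, where edgeR called 30.

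The other treatments gave no edgeR call among the proteasome genes. In ATP8, 19 genes were higher at an unadjusted p under 0.05 against 6.21% of all genes, and 1 was called under the replicate block (PSMD14 at 0.21, adjusted p = 0.0496, of 36 genes called in all) and 2 by DESeq2 (of 86), where edgeR called 0.0444% of all genes higher. In ATP6 there were 12 such genes against 5.39%, in COX1 9 against 4.58% and in CYTB 9 against 7.66%. In these 3 treatments DESeq2 with the batch called none either, and edgeR called 0.00493%, 0.0345% and 0.38% of all genes higher. ND2 had 4 genes higher at an unadjusted p under 0.05 against 2.34% of all genes, ND5 1 against 4.78% and ND3 0 against 1.62%. DESeq2 called none in them, and edgeR called 0.00987%, 0.074% and 0.00493% of all genes higher. To compare genes of like abundance, the same share was taken over the 6887 genes with a mean of at least 32 CPM, to which 38 of the proteasome genes belong. It was 8.71% in ATP6, 11% in ATP8, 12.6% in COX2, 9.18% in COX3 and 12.3% in ND1, and 63.2% of the 38 abundant proteasome genes in both COX3 and ND1.

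**Figure D3:**
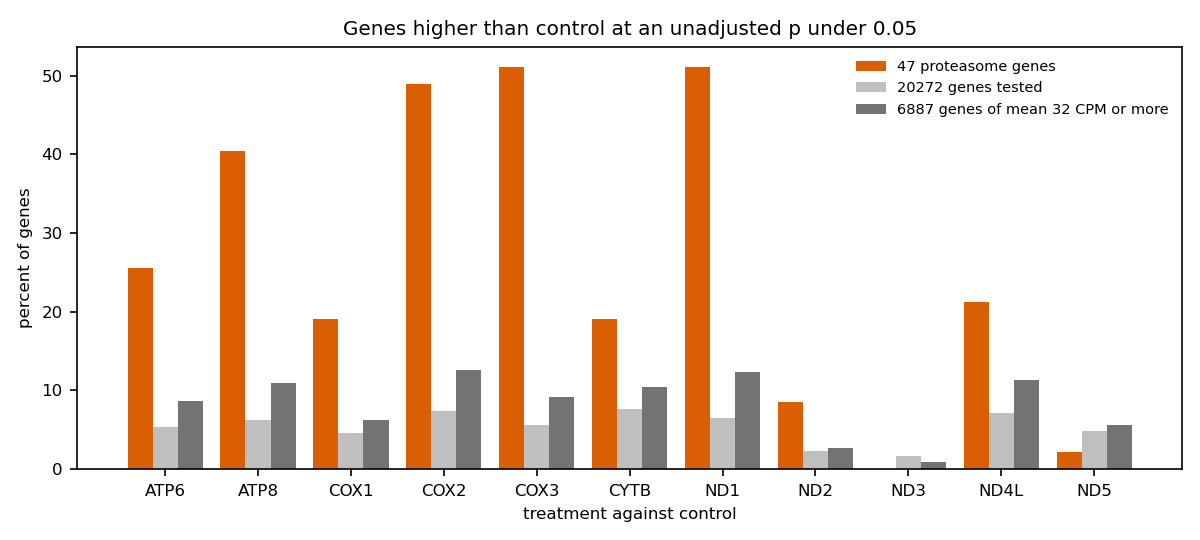
Percent of genes higher than control at an unadjusted p under 0.05 in each treatment, for the 47 proteasome genes, all 20272 genes tested and the 6887 genes with a mean of 32 CPM or more. The proteasome bar reached 51.1% in COX3 and ND1, and it was below both other bars in ND3, where it was 0, and in ND5.

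The median over the 47 genes was small. It was 0.14 in COX3, 0.13 in ND1 and in COX2, 0.10 in ATP8, and between 0.01 (ND5) and 0.06 in the others, while the median of all genes was within 0.01 of 0. The ND5 median of 0.0072 was below 0 without control replicate 4 (-0.0084) or ND5 replicate 3 (-0.0083), and in batch 1 alone (-0.0048). The COX1 median ran from 0.026 to 0.062 with a library left out, that of COX2 from 0.081 (without COX2 replicate 2) to 0.16, and that of COX3 from 0.10 to 0.16. The 11 treatments share the 4 control libraries, so their common direction is not independent evidence. Calculated for each library against the control mean of its batch, the median was above 0 in 37 of 42 treated libraries, from -0.05 in ND5 replicate 1 to 0.21 in ND1 replicate 3. The median of all genes was above 0 in most of these libraries too, from -0.0046 (ATP8 replicate 2) to 0.015 (ATP6 replicate 4). For the proteasome genes, the control libraries themselves lay within 0.02 of 0 in batch 1 and at 0.04 and -0.04 in batch 2. The spread between libraries of a treatment was large beside the differences between treatments: ND5 ran from -0.05 to 0.09 and COX2 from 0.05 to 0.18.

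The normalization factors of the libraries were read beside this median. The 4 libraries with the lowest factors, COX2 replicate 2 (0.970), ATP8 replicate 2 (0.971), CYTB replicate 1 (0.978) and ATP6 replicate 2 (0.979), had medians of 0.18, 0.14, 0.11 and 0.12. The 2 with the highest, control replicate 4 (1.03) and ND5 replicate 4 (1.03), had -0.04 and -0.01. ND1 replicate 3, with the highest median of all libraries (0.21), had the lowest factor of batch 2 (0.986). In batch 1, ND1 replicate 2 (0.981) and COX3 replicate 1 (0.982) had medians of 0.14 and 0.17. COX3 replicates 3 and 4 had factors near 1 (0.998 and 1.00) with medians of 0.16 and 0.13, and ND4L replicate 3 had a factor of 1.01 with 0.10. The part of RNA composition in the result was not tested. With library sizes taken from nuclear genes only and without normalization factors, the medians were 0.12 in COX3, 0.10 in ND1 and 0.09 in COX2. This fit changed both settings at once, so their parts cannot be told apart.

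**Figure D4:**
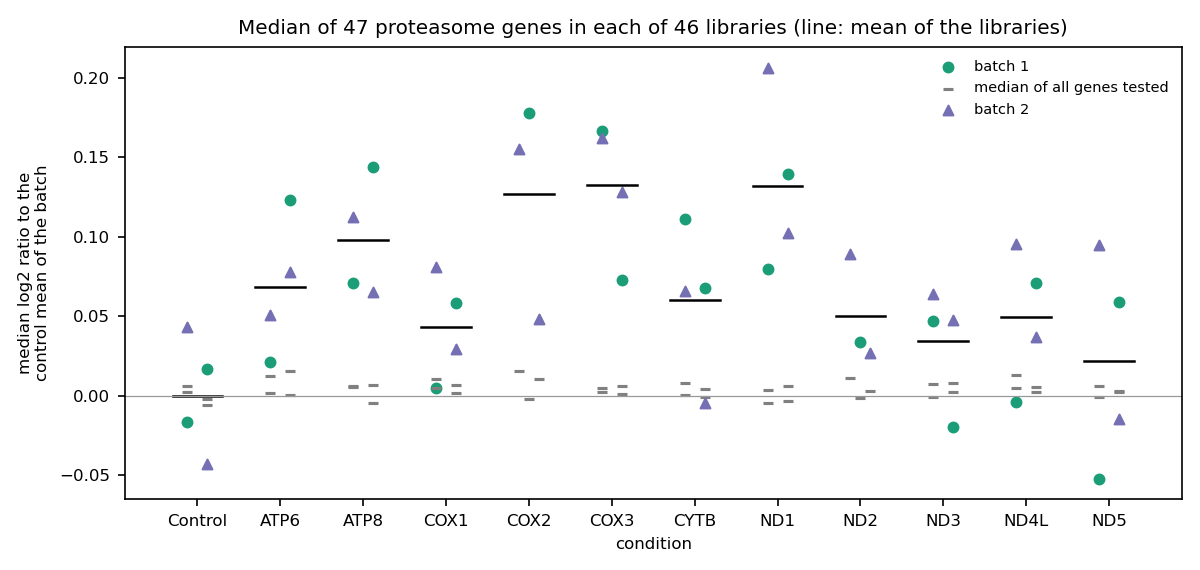
Median log2 ratio of the 47 proteasome genes in each library to the control mean of its batch, with circles for batch 1, triangles for batch 2, a black line for the mean of the libraries and grey dashes for the median of all genes tested. In COX3 and ND1 all 4 libraries lay above 0.07, and ND5 replicate 1 was the lowest at -0.05.

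Averaged over the 11 treatments, no proteasome gene was called by edgeR, against 0.178% of all genes called higher. 17 were higher at an unadjusted p under 0.05 against 6.55% of all genes, the replicate block called 5 (PSMB7, PSMC1, PSMD1, PSMD14 and PSMD4) and DESeq2 called 7, among 152 and 234 genes called in all where edgeR with the batch called 53. The largest mean changes were those of PSMB7 (0.17, SE 0.042, edgeR adjusted p = 0.0511), PSMA7 (0.16, SE 0.045, adjusted p = 0.094), PSMB5 (0.16, SE 0.045, adjusted p = 0.0945) and PSMB6 (0.16, SE 0.049, adjusted p = 0.139). PSMB7 and PSMC1 were above the control mean of their batch in 41 of 42 treated libraries, as was PSMD4, a receptor for ubiquitin in the base with a mean change of 0.13 (SE 0.037, adjusted p = 0.0988). The treated libraries of a batch share its control libraries, so these counts are not independent evidence. The like count over all genes was not taken.

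By role, the medians of these mean changes were 0.12 for the non-ATPase base genes, 0.11 for the base ATPases, 0.11 for the core β genes, 0.08 for the lid, 0.06 for the core α genes, 0.05 for the activators and inhibitors and 0.04 for the assembly chaperones. Within a role, differences between genes were not tested. Among the ATPases, which form a ring with each ATPase in equal number, PSMC1 had 0.15 (SE 0.038, edgeR adjusted p = 0.0573) and PSMC2 had 0.03 (SE 0.037, adjusted p = 0.788). In the lid, PSMD14 had 0.15 (SE 0.039, adjusted p = 0.0684) and PSMD11, a clamp of the lid, 0.02 (SE 0.035, adjusted p = 0.890). In the core β ring, PSMB2 had 0.02 (SE 0.035, adjusted p = 0.854), below the 3 catalytic subunits.

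**Figure D5:**
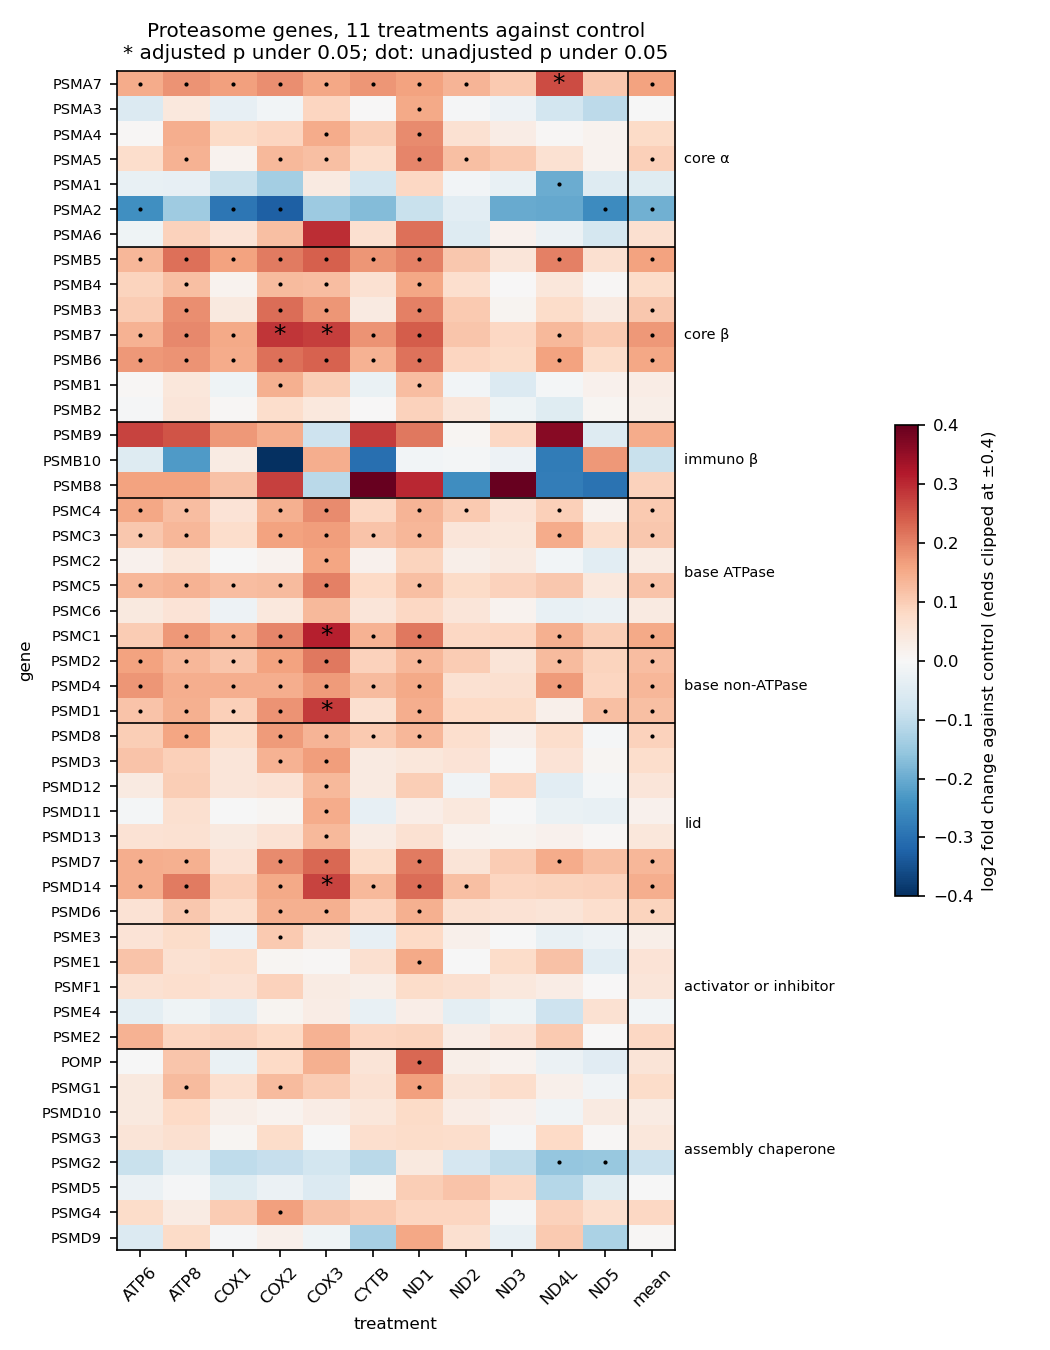
Log2 fold change of each proteasome gene in each of the 11 treatments against control and in their mean, in colour from blue (lower) to red (higher) with ends clipped at 0.4, ordered by role, with a star for an adjusted p under 0.05 and a dot for an unadjusted p under 0.05. The 6 stars are PSMC1, PSMD1, PSMD14 and PSMB7 in COX3, PSMB7 in COX2 and PSMA7 in ND4L, and PSMA2 is blue in every column.

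A test for any difference among the 12 conditions called PSMD1, PSMB7, PSMD14 and PSMC1, 4 of 47 genes against 0.493% of all genes. These are the 4 genes called in COX3, and without COX3 replicate 1 or COX3 replicate 3 no proteasome gene was called in this test. It called 1 without control replicate 2, and from 2 to 4 without any other single library, 2 without control replicate 1, 3 or 4. Against the mean of the other 10 treatments, the median of the proteasome genes was lowest in ND5 (-0.06), ND3 (-0.04) and ND4L (-0.04). At an unadjusted p under 0.05, 9 genes in ND5, 8 in ND3 and 5 in ND4L were lower, against 6.21%, 2.93% and 6.14% of all genes. None of these passed adjustment in edgeR or in DESeq2, where edgeR called 0.774%, 0.00987% and 0.0197% of all genes in either direction.

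PSMA2, an α subunit of the core, ran the other way. It measured 10.9, 12.3, 12.4 and 9.61 CPM in the control libraries, and 10.3, 9.13 and 7.25 CPM in COX2 replicates 2, 3 and 4. Its log2 fold change was below 0 in 11 of 11 treatments and was lowest in COX2, at -0.33 (SE 0.120, edgeR adjusted p = 0.191). The mean over treatments was -0.19 (SE 0.080, adjusted p = 0.301), with -0.12 without control replicate 3 and -0.25 without control replicate 4, and 6 of 42 treated libraries were above the control mean of their batch. The control libraries differed among themselves by as much, replicates 3 and 4 being the highest and the lowest of the 4, and the change did not pass the test. PSMG2, a chaperone of the α ring, had fold changes below 0 in 10 of 11 treatments, with a mean of -0.09 (SE 0.053, edgeR adjusted p = 0.540), and PSMA1 was below 0 in 9. The 11 treatments share the same 4 control libraries, and the like counts over all genes were not taken. Of their exonic bases, 34.6% (PSMA2), 16.7% (PSMG2) and 24.7% (PSMA1) are also exonic in another gene, and the part of this overlap was not tested.

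The immunoproteasome genes gave no call in any treatment with edgeR. PSMB9 had a mean change of 0.15 (SE 0.157, edgeR adjusted p = 0.756), PSMB8 of 0.09 (SE 0.281, adjusted p = 0.934) and PSMB10 of -0.09 (SE 0.191, adjusted p = 0.895). A single control library moved them, PSMB9 to 0.04 without replicate 4 and 0.29 without replicate 3, PSMB8 to 0.17 and 0.04, and PSMB10 to -0.18 and -0.03. Their standard errors were 3 or more times those of the catalytic core genes, so changes of the size seen in PSMB7 were not detectable with this spread. The part of depth in the spread was not tested. PSMB10 was lowest in COX2, at 1.01, 0.711 and 0.780 CPM in replicates 2, 3 and 4 against 1.28, 1.24 and 0.900 CPM in the controls of the same number (log2 fold change -0.44, SE 0.290, edgeR adjusted p = 0.528). All 3 COX2 libraries lay below the controls of their batch, and the difference did not pass the test.

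The activators and the assembly chaperones had the smallest median changes of all roles in the mean of treatments. PSME2, which with PSME1 forms the activator that interferon raises, had the highest mean change of the activators, 0.08 (SE 0.053, edgeR adjusted p = 0.559), and PSME4, the activator of nuclear proteasomes, had the lowest, -0.01 (SE 0.036, adjusted p = 0.931). Of the chaperones, PSMG4 had the highest mean change, 0.08 (SE 0.052, edgeR adjusted p = 0.548), and POMP had 0.05 (SE 0.061, adjusted p = 0.795). None of the 5 activators and inhibitors or the 8 chaperones was called in any treatment by edgeR.

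The difference between batches was of the size of the treatment differences. Batch 2 against batch 1 called 29 proteasome genes lower and 1 higher (PSME1, log2 difference 0.13), 30 of 47 against 57.1% of all genes called in either direction. By direction, at an unadjusted p under 0.05, 30 proteasome genes (63.8%) were lower against 29.9% of all genes. Only 1 was higher (2.13%), against 31.3% of all genes. The median difference was -0.11, against 0.01 over all genes, and PSMB3 had the lowest value, -0.30. In the control libraries alone the summed proteasome level was 6871 and 6987 CPM in batch 1 and 6525 and 6197 CPM in batch 2. In the same contrast 16 of 19 heat-shock and proteotoxic stress genes fell, HSPA1A by 1.08. At an unadjusted p under 0.05 the same number of them was lower, against 29.9% of all genes. Days and reagents cannot be told apart in this difference, and each treatment was compared with the controls of its own batch.

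Genes that work with the proteasome were read in 3 lists. Of 29 ubiquitin and proteasome partners, UFD1, which brings ubiquitinated proteins to the proteasome with VCP, was called in COX3 at 0.20 (SE 0.047, edgeR adjusted p = 0.0397), where 0.178% of all genes were called higher. Of 19 genes of antigen presentation and interferon, HLA-E was called in COX2 at 0.20 (SE 0.049, edgeR adjusted p = 0.0352), where 0.252% of all genes were called higher. None of the 19 heat-shock and proteotoxic stress genes was called against control. The medians of the 3 lists over the mean of treatments were 0.02, 0.05 and 0.02, beside 0.07 for the proteasome genes, and in COX3 they were 0.06, 0.01 and 0.05, beside 0.14.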

How the data were processed

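RNA of 46 HEK293T samples was sequenced by the authors, who deposited a table of raw counts per gene with gene length, name, biotype and position (GRCh38.p12 per the processing notes). The aligner, the counter and its strand setting are not given in the sources used here, and the read layout differs between the labels and the methods. All 58735 identifiers, starts, ends and lengths equalled GENCODE release 29. The study used DESeq2 1.40.2 and limma 3.56.2 in R 4.3.0.

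From the deposited counts, genes passing filterByExpr (minimum count 10) were normalized by TMM and fitted over all libraries with condition and batch in edgeR 4.0.16 (R 4.3.3, quasi-likelihood, Benjamini-Hochberg over 20272 genes, threshold 0.05). CPM use TMM library sizes, and levels between genes were divided by the deposited length. A library did not overlap control where it lay above, or below, every control of its batch. Depth was 18876395 to 100698084 counts. The labels do not say whether replicates were separate cultures, although the methods call them biological, so p-values measure the spread between these samples.

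Same-numbered libraries of different conditions deviated together (mean correlation 0.46 to 0.57, lowest 0.17), as did different numbers of the same batch (0.51 and 0.39), so the replicate number was also fitted as a block. The pairing comes from the replicate numbers in the labels.

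Alternatives were DESeq2 1.42.0, DESeq2 on counts corrected with limma 3.58.1, other scalings, filters and single batches. Library sizes from nuclear genes were used without normalization factors. A GC trend, a robust spread and leaving out COX3 and control replicate 4 were chosen after seeing the data. Scripts were tested on simulated data.

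Genes named are those called, the highest and lowest of each role in the mean of treatments, catalytic and immunoproteasome subunits, POMP, called partners and members that failed the filter. PSMD2, PSMD6, PSMD7, PSMD8, PSMC4, PSMB3, PSMB4, PSMA1, PSMA6, PSMC6 and PSME1, and genes added by an alternative, were named after their values were seen. The members and lists were chosen with earlier results of these data known.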

Additional observations from a re-analysis of the deposited data

Results flagged for a closer look

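PSMC1 and PSMD1 differed between COX3 silencing and the mean of the other 10 treatments by a test of the difference itself, with log2 differences of 0.17 and 0.18. Both shared the COX3 libraries, and the values without single libraries are given with the result.

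In 120 groups of 4 libraries, 6 had a library that stood apart from the other 3 by Dixon's criterion, and chance alone marks about 1 in 20 groups. PSMA7 stood high in ATP8 replicate 1 (182 CPM, the others 171 to 173), in ND3 replicate 4 (174, the others 162 to 163) and in ND5 replicate 2 (192, the others 157 to 158). PSMC1 stood low in ND1 replicate 4 (77.5 CPM, the others 88.8 to 89.1). PSMB8 stood low in ND1 replicate 3 (0.397 CPM, the others 0.574 to 0.608). POMP stood high in ND3 replicate 1 (124 CPM, the others 93.6 to 96.1).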

How the results depend on the processing

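The medians of the proteasome genes moved by less than 1 SD of the libraries in 179 alternative fits and in 132 with a library left out, and the ND5 median changed sign in 4 of these (-0.0096 without COX3 and control replicate 4, -0.0048 in batch 1 alone, -0.0084 without control replicate 4 and -0.0083 without ND5 replicate 3). With a library left out, ATP6 ran from 0.037 to 0.085, CYTB from 0.038 to 0.089, ND3 from 0.021 to 0.065 and ND4L from 0.030 to 0.057. Counts of called genes moved. In COX3 (4) they were 12 with the replicate block, 11 with DESeq2, 12 with DESeq2 on corrected counts, 10 without a filter, 7 at a minimum count of 50, 9 with the GC trend removed, 9 with only the libraries compared, and 0 without the batch term or in either batch alone. The 4 genes were shared with every one of these settings that called any. Without COX3 and control replicate 4, edgeR called 3 of the 4 and lost PSMB7 (adjusted p = 0.129). COX2 (1) gave, in the same order, 2, 3, 3, 4, 1, 4 and 7, 0 without the batch term or in either batch, and 0 without COX3 and control replicate 4. ND1 (0) gave 3, 5, 6, 7, 0, 3 and 8, 1 with the trend on gene length removed and 2 with a robust spread. ND4L (1) gave 3 with DESeq2 in both forms, 2 without a filter, in batch 2 alone and with only the libraries compared, and 0 without the batch term, with RLE size factors, with the length or GC trend removed, in batch 1, or without COX3 and control replicate 4. ATP8 (0) gave 1 with the block, 2 and 2 with DESeq2, 3 without a filter and 1 with only the libraries compared. CYTB (0) gave 1 with DESeq2 on corrected counts, 2 without a filter and 3 with only the libraries compared. The mean of treatments (0) gave 5 with the block, 7 and 8 with DESeq2, 5 without a filter, 2 at a minimum count of 50, 4 with the GC trend removed, and 1 with the length trend removed or a robust spread. COX3 against the other treatments (2) gave 4 with the block and 0 without the batch term or in either batch. Without COX3 and control replicate 4 this comparison gave 2, of which 1 was shared, and PSMC1 was not called (edgeR adjusted p = 0.0520). ND1 against the others (0) gave 1 with DESeq2 on corrected counts and 2 without a filter. The test of any difference (4) gave 10 with DESeq2 on corrected counts, 12 without a filter, 2 with library sizes from nuclear genes or without COX3 and control replicate 4, and 0 without the batch term or in either batch. A single batch leaves fewer libraries. For the other settings the cause was not tested. The replicate block moved no other count by more than 1.5 times.

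With a library left out, the counts ran from 0 to 4 in COX2, 2 to 6 in COX3, 0 to 1 in ND1 and in ND4L, 0 to 3 in the mean of treatments, 0 to 2 in COX3 against the others and 0 to 4 in the test of any difference. The mean change of 4 genes crossed 0: PSMB2 (-0.031 in batch 2, and from -0.00092 without control replicate 2 to 0.046 without control replicate 3), PSMD11 (-0.00076 with nuclear library sizes, -0.014 in batch 2, and from -0.0017 without control replicate 1 to 0.0395 without control replicate 3), PSME4 (0.0080 with the length trend removed, 0.0105 in batch 1, 0.0113 with the GC trend removed, and from -0.0235 without control replicate 2 to 0.00369 without COX3 and control replicate 4) and POMP (-0.015 in batch 2). PSMB8, PSMB9 and PSMB10 had the fewest counts of the proteasome genes tested, and the part of depth in their spread was not tested.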
